A study of Homo sapiens with 6 samples.

Results

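The genes for the proteins of the cytosolic ribosome were compared between WT and ARID1A-KO cells in untreated AID-DIvA cultures. The genes were chosen by name from the deposited RNA-seq tables, as RPL or RPS followed by a number and at most the letter A, RPSA, and RPLP0 to RPLP2, on the autosomes. The rule found 73 of the 57820 genes listed, 30 for the small subunit and 43 for the large subunit. AID-DIvA is a derivative of the U2OS osteosarcoma cell line in which the nuclease AsiSI can be induced to cut DNA and then be degraded by auxin. No breaks were induced in the samples used here, so both groups carried the AsiSI system in its uninduced state and differed in ARID1A genotype. ARID1A encodes the DNA-binding subunit of the BAF (SWI/SNF) chromatin remodeller, and the knockout was made with CRISPR crRNAs. Knockout clones were established, and how many entered the RNA-seq is not given in the sources used here. Differences due to the loss of ARID1A and to the derivation of a clone cannot be told apart in this design. Each group held 3 samples, numbered 3, 4 and 5, and no label ties them to separate cultures or days. The study describes the data of the figure with its RNA-seq panels as biological replicates from separate experiments, and p-values measure the spread between these samples.

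A cytosolic ribosome has a small subunit, which reads the mRNA, and a large subunit, which joins amino acids. The proteins are needed in matched amounts, and their genes are among the most highly transcribed of a growing cell. Their mRNAs are known as 5′TOP mRNAs, since they begin with a C followed by a run of pyrimidines, through which mTORC1 and the RNA-binding protein LARP1 control their translation. Surplus ribosomal proteins are degraded, and free RPL5 and RPL11 bound to 5S rRNA can hold back MDM2, the ligase that removes p53.

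Between 54512105 and 84088708 reverse-stranded counts per sample were assigned to genes. The ARID1A row, which checks the labels, fell from 173 ± 6.67 CPM (counts scaled to library size by TMM, SD, n = 3) in WT to 25.9 ± 1.38 CPM in ARID1A-KO, which is -2.74 on the log2 scale (adjusted p = 9.66e-08). Of the osteosarcoma markers, VIM stood at 2354 CPM and COL1A1 at 447 CPM in WT, while COL1A2, BGLAP and SP7 were under 1 CPM. Of the other cell type markers, CD3E, CD68, KRT5, ALB and GFAP were under 1 CPM in both groups, and PTPRC and EPCAM stood at 1.95 and 5.15 CPM in WT. Of the 7 osteosarcoma markers tested, VIM was higher and ALPL, SPP1, CDH2 and COL1A1 were lower in ARID1A-KO, and of the 2 other markers tested EPCAM was higher and PTPRC lower. Mitochondrial genome rows held between 5.85% and 6.08% of the counts in WT and between 6.31% and 6.99% in ARID1A-KO. Their part in the fold changes below was not tested.

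As a group the ribosomal protein genes took a like part of the counts in both genotypes. Their counts summed to 5.61%, 5.93% and 5.61% of all counts in WT and to 5.91%, 5.76% and 5.47% in ARID1A-KO. The ranges overlapped, and the means of 5.71% ± 0.18 and 5.71% ± 0.23 (SD, n = 3) differed by less than the spread between replicates. With the mitochondrial genome rows and the noncoding RNAs listed for library composition left out of the total, the means were 6.09% ± 0.20 and 6.12% ± 0.26. In these bulk samples fewer cells of a type and less RNA per cell cannot be told apart.

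Of the 73 genes, 72 passed the filter on low counts and were tested with edgeR across all 19599 genes that passed. At an adjusted p under 0.05, 5 genes were higher and 7 were lower in ARID1A-KO, which is 16.7% of the 72. Over all genes tested, 36.2% were called, 17.8% higher and 18.4% lower, and over the 1252 genes within the 5th to 95th percentile of the ribosomal protein genes' expression 34.7% were called. These 1252 genes of like expression include the ribosomal protein genes in that range. They share the range and not the level, with a median of 7.90 log2 CPM against 9.49 for the 72 genes. The genes that rose were RPL13, RPS15, RPLP2, RPS24 and RPS2, and those that fell included RPS6, RPL24, RPS28, RPL35A, RPS15A and RPS9. Small subunit genes were 3 of the 5 risers and 4 of the 7 that fell, and large subunit genes 2 and 3.

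**Figure D1:**
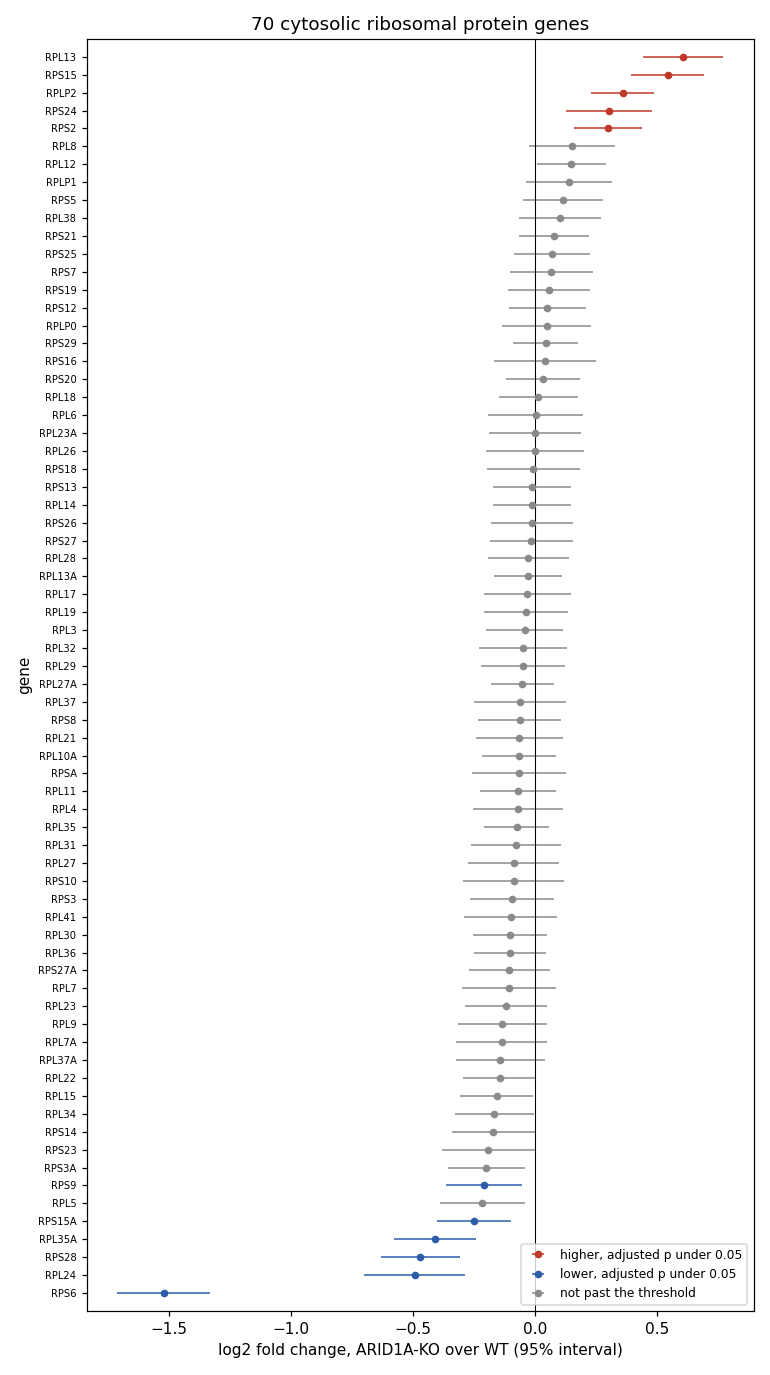
Each row is a ribosomal protein gene (70 of the 72 tested are drawn), with its log2 fold change (ARID1A-KO over WT) as a point and the 95% interval as a bar, coloured by its call at an adjusted p under 0.05. Most points lie close to 0, RPS6 stands apart at -1.52, and RPL13 is the highest at 0.61.

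The remaining 60 genes had log2 fold changes between -0.21 and 0.15. All 60 had a 95% interval that lay within -0.5 and 0.5, with bounds no further out than -0.39 and 0.33. Counting the called genes too, 65 of the 72 (90.3%) had such an interval, where the share was 41% over all genes tested and 79.5% over genes of like expression. The median log2 fold change of the 72 genes was -0.05, with quartiles of -0.11 and 0.03. All genes tested had a median of 0.01 with quartiles of -0.25 and 0.28, and genes of like expression a median of -0.04 with quartiles of -0.18 and 0.10. There were 23 genes with a positive and 49 with a negative log2 fold change. RPS6 alone changed by at least 2-fold at an adjusted p under 0.05, against 10.8% of all genes tested. CPM values of the genotypes did not overlap for 20 of the 72 genes, among them all 12 that were called, against 49.5% of all genes tested.

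**Figure D2:**
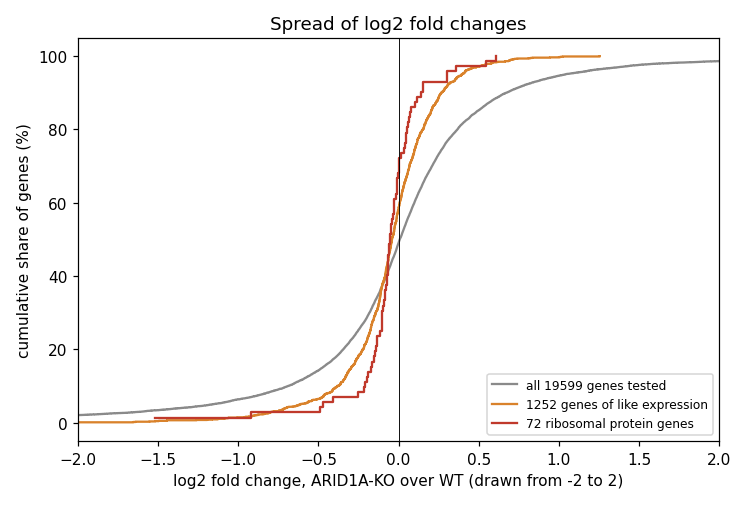
Cumulative share of genes (%) against the log2 fold change (ARID1A-KO over WT, drawn from -2 to 2) for all genes tested, for genes of like expression and for the 72 ribosomal protein genes. The curve of the ribosomal protein genes is the steepest around 0, with a median size of change of 0.08 against 0.15 for genes of like expression and 0.27 for all genes.

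The starts of the transcripts were read from the RefSeq promoter table (GRCh38.p14), which matched 58 of the 73 genes. A start was counted as TOP where the first base was C and it opened a run of at least 5 bases that were all C or T, on the transcribed strand. This held for 40 of the 58 genes (69%) and for 4.04% of the 27305 promoters in the table. With the C allowed anywhere within 10 bases of the annotated start it held for 52 of 58 (89.7%) and for 33.3% of all promoters. Of the 9 called genes with an entry, 6 had the run at the annotated start, and these were genes of both directions. The sequences of these 9 and of 3 genes that were not called (RPLP0, RPS19 and RPL3) are given 5′ to 3′, with 10 bases before the annotated start and with the run of pyrimidines that opens at the start in capitals. They are shown so that the starts of genes that fell, rose or were not called can be compared.
RPS6, fell, chr9:19380221-19380246, minus strand: gaagttggccCTCTTTTCCgtggcgc
RPL24, fell, chr3:101686703-101686728, minus strand: atgattctctCTTTCTTTTCgccatc
RPL35A, fell, chr3:197950180-197950205, plus strand: gggcctcgtcCTTCTCTTaccgccat
RPS9, fell, chr19:54200848-54200873, plus strand: gcttccgcgcCTCTTTCTCagtgacc
RPS28, fell, chr19:8321486-8321511, plus strand: gaagcacgtgactcctctccgccaga
RPLP2, rose, chr11:809957-809982, plus strand: tcggcgccttCCTTTTCCTCCCTgtc
RPS24, rose, chr10:78033853-78033878, plus strand: aatcgtggttCTCTTTTCCTCCTTgg
RPL13, rose, chr16:89560647-89560672, plus strand: tgctatcatcCCagagtgcattgcgg
RPS15, rose, chr19:1438386-1438411, plus strand: aggcgcggacCaaagcgatctcttct
RPLP0, not called, chr12:120201096-120201121, minus strand: ggcgcgaggcCCTTCTCTCgccaggc
RPS19, not called, chr19:41860245-41860270, plus strand: ccccgtcgttCCCTTTCCCCTggctg
RPL3, not called, chr22:39319608-39319633, minus strand: gccgaccggcCTCTaccggcgggatt
RPS6 and RPS24, which moved in opposite directions, both open with CTCTTTTCC. RPS28, RPS15, RPL13 and RPL3 have no run of at least 5 at the annotated start, which says only that the letters are not at this place.

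RPS6 is the small subunit protein that S6 kinase phosphorylates when mTORC1 is active. Its transcript begins with 9 pyrimidines, as printed with the other starts. The gene (ENSG00000137154.8, chromosome 9, 19375713 to 19380252, minus strand, in GRCh37 like the other gene positions) had 1403, 1509 and 1308 CPM in WT and 526, 497 and 449 CPM in ARID1A-KO. Every knockout sample was far below every WT sample. The mean fell from 1407 ± 100 to 491 ± 39 CPM (SD, n = 3), which is -1.52 on the log2 scale (SE 0.08, adjusted p = 3.45e-06). In TPM, which is per length, it went from the 11th highest of the 73 genes in WT to the 47th in ARID1A-KO. Genes around it were lower as well: of 27 tested genes within 5 Mb, 24 had a negative log2 fold change and 20 were called lower, with a median of -1.43. After that median was taken off, RPS6 differed by -0.09 (adjusted p = 0.426).

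RPL24 and RPL35A are large subunit proteins whose genes lie on chromosome 3, far from each other. RPL24 (ENSG00000114391.8, 101399935 to 101405626) had 689, 754 and 682 CPM in WT and 548, 526 and 437 CPM in ARID1A-KO, and the log2 difference came to -0.49 (SE 0.09, adjusted p = 0.00275). RPL35A (ENSG00000182899.10, 197676858 to 197683481), a gene mutated in Diamond-Blackfan anemia, had 509, 534 and 498 CPM in WT and 421, 385 and 355 CPM in ARID1A-KO, or -0.41 on the log2 scale (SE 0.07, adjusted p = 0.00254). The neighbours of both were lower, with medians of -0.38 over 43 genes and -0.24 over 65 genes. Relative to these medians RPL24 differed by -0.11 (adjusted p = 0.393) and RPL35A by -0.17 (adjusted p = 0.121), and neither passed the threshold. The medians depended on the window. Within 0.5 Mb they were -0.23 over 14 genes for RPL24 and -0.08 over 9 genes for RPL35A. Within 1 Mb they were -0.34 over 17 genes and -0.29 over 12 genes.

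RPS28, RPS15A and RPS9 are small subunit proteins, RPS9 being one of those that join the assembling subunit early. RPS28 (ENSG00000233927.4, chromosome 19, 8386042 to 8388224) had 249, 271 and 287 CPM in WT and 192, 205 and 186 CPM in ARID1A-KO. Its log2 fold change came to -0.47 (SE 0.07, adjusted p = 0.000926), and its neighbours had a median of -0.28, with 209 of them negative and 52 positive. RPS15A (ENSG00000134419.11, chromosome 16, 18792617 to 18801705) had 128, 134 and 133 CPM in WT and 118, 112 and 102 CPM in ARID1A-KO, or -0.25 on the log2 scale (SE 0.07, adjusted p = 0.0171). RPS9 (ENSG00000170889.9, chromosome 19, 54704610 to 54752862) had 427, 468 and 471 CPM in WT and 393, 415 and 372 CPM in ARID1A-KO, or -0.21 on the log2 scale (SE 0.07, adjusted p = 0.0404). The medians around RPS15A and RPS9 were positive, at 0.04 over 87 genes and 0.21 over 314 genes. RPS9 passed the threshold in 1 of the 6 fits that left out a sample (adjusted p up to 0.114), and RPS15A lost the call without ARID1A-KO replicate 4 (adjusted p = 0.0569).

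RPL13, a large subunit protein, had the largest rise. Its gene (ENSG00000167526.9, chromosome 16, 89627065 to 89630950, plus strand) had 419, 445 and 446 CPM in WT and 608, 686 and 702 CPM in ARID1A-KO. The means were 437 ± 15.4 and 666 ± 50.3 CPM (SD, n = 3), a rise of 0.61 on the log2 scale (SE 0.07, adjusted p = 0.00023). Of its 77 neighbours, 67 had a positive log2 fold change and 44 were called higher, with a median of 0.42. RPL13 was above that median by 0.19 (adjusted p = 0.0708).

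RPS15, a small subunit protein needed for export of the pre-subunit from the nucleus, is encoded near the start of chromosome 19 (ENSG00000115268.5, 1438358 to 1440583). It had 468, 482 and 494 CPM in WT and 675, 749 and 682 CPM in ARID1A-KO, so that every knockout sample was above every WT sample. The log2 fold change was 0.54 (SE 0.07, adjusted p = 0.00025). How it compared with its surroundings depended on the window. The median was 0.11 over 195 neighbours within 5 Mb, against which RPS15 remained higher (0.43, adjusted p = 0.00118), but 0.64 over the 47 neighbours within 0.5 Mb.

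RPLP2 is one of the acidic proteins of the P stalk, the arm of the large subunit that recruits elongation factors. Its gene (ENSG00000177600.4, chromosome 11, 809647 to 812880) had 337, 345 and 358 CPM in WT and 451, 445 and 439 CPM in ARID1A-KO, a rise of 0.36 on the log2 scale (SE 0.06, adjusted p = 0.00124). The neighbours' median was 0.31 over 88 genes, and RPLP2 differed from it by 0.05 (adjusted p = 0.56). Within 0.5 Mb the median was smaller, at 0.16 over 34 genes. The other parts of the stalk did not pass the threshold. RPLP0, which anchors the stalk, had a log2 difference of 0.05 (SE 0.08), RPLP1, the partner of RPLP2, 0.14 (SE 0.08, adjusted p = 0.195) and RPL12, at the base, 0.15 (SE 0.06, adjusted p = 0.0936).

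RPS24 and RPS2 are small subunit proteins that rose to a like extent. RPS24 (ENSG00000138326.14, chromosome 10, 79793518 to 79816570), another Diamond-Blackfan anemia gene, had 813, 829 and 755 CPM in WT and 1081, 956 and 923 CPM in ARID1A-KO. Its log2 fold change came to 0.30 (SE 0.08, adjusted p = 0.0144), and the call was lost without WT replicate 5 (adjusted p = 0.0619). RPS2 (ENSG00000140988.11, chromosome 16, 2012053 to 2014861) had 969, 957 and 1001 CPM in WT and 1182, 1186 and 1233 CPM in ARID1A-KO, a rise of 0.30 on the log2 scale (SE 0.06, adjusted p = 0.00452). Around RPS24 the neighbours' median depended on the window. It was 0.29 over 75 genes within 5 Mb, -0.10 over 18 genes within 2 Mb and 0.17 over 5 genes within 0.5 Mb. Around RPS2 it was 0.11 over 172 genes, and RPS2 remained above it by 0.19 (adjusted p = 0.0383).

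**Figure D3:**
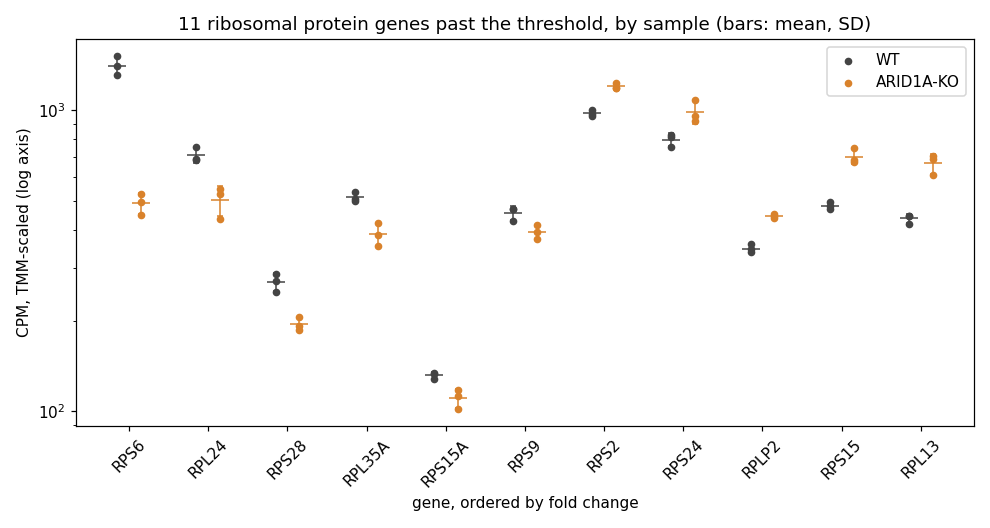
CPM (TMM-scaled, log axis) of 11 of the 12 called ribosomal protein genes in each WT and ARID1A-KO sample, with the mean and SD of 3 samples as bars, ordered by fold change. WT and ARID1A-KO points do not overlap for any of the 11 genes, and the gap is widest for RPS6.

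Several genes with well-known roles were among the 60 that were not called. RPL5 and RPL11, which carry 5S rRNA, had log2 fold changes of -0.21 (SE 0.08, adjusted p = 0.0555) and -0.07 (SE 0.07, adjusted p = 0.469). For RPL5 the samples had 1123, 1171 and 1116 CPM in WT and 1065, 981 and 892 CPM in ARID1A-KO, which did not overlap. RPS19 and RPS14, whose loss causes Diamond-Blackfan anemia and the anemia of 5q- syndrome, had log2 fold changes of 0.06 (SE 0.07) and -0.17 (SE 0.08). RPL22, which has a near-copy gene discussed with the paralogs, had -0.14 (SE 0.07). RPS3, at the mRNA entry of the small subunit and also known as a DNA repair endonuclease, had -0.09 (SE 0.08), and RPL3, near the peptidyl transferase centre, had -0.04 (SE 0.07). RPSA, also known as a laminin receptor, had -0.07 (SE 0.09), RPS27A, which is made as a fusion with ubiquitin, -0.10 (SE 0.07), RPS27 -0.01 (SE 0.08) and RPL41, the smallest ribosomal protein, -0.10 (SE 0.08). Of the 18 Diamond-Blackfan anemia genes listed, 17 were tested, RPS24 was higher, RPS28, RPL35A and RPS15A were lower, and the median was -0.07. The share called was 23.5%, against 36.2% of all genes tested.

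The changes of the ribosomal protein genes went with those of the genes around them. Across the 72 genes, the log2 fold change and the median of other tested genes within 5 Mb (24 to 314 genes) had a Pearson r of 0.82 and a Spearman rho of 0.61. Without RPS6 they were 0.67 and 0.59 over 71 genes, and over the 1252 genes of like expression 0.57 and 0.46. These points are genes of the same 6 libraries, and those on one chromosome share neighbours, so they are a description. For 10 of the 12 called genes the neighbours' median had the same sign, and for 8 it was past 0.2 in the same direction. These counts were not set against other called genes, so they describe these 12 genes only. Among the 60 genes not called, 4 had a median past 0.2 in size. After each gene's neighbour median was taken off, 10 of the 72 genes were called, 3 higher and 7 lower, against 32% of all genes tested. Of the original 12, 5 were still called, among them RPS15A, RPS9, RPS2 and RPS15.

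RPS3A, singled out after its values were seen, had a neighbour median far below its own change. It is a small subunit protein encoded on chromosome 4 (152020725 to 152025804), and it had 697, 737 and 705 CPM in WT and 667, 616 and 581 CPM in ARID1A-KO. Its log2 difference of -0.20 (SE 0.07, adjusted p = 0.0511) just missed the threshold, while its 35 neighbours had a median of -0.71. Relative to them it was higher by 0.51 (adjusted p = 0.000647). This rests on the wider windows, since the median was -0.25 over 5 genes within 0.5 Mb, -0.30 over 9 genes within 1 Mb and -0.96 over 16 genes within 2 Mb. Genes called lower only after the neighbours' median was taken off included RPL22, RPL13A and RPL28, which had positive medians around them.

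**Figure D4:**
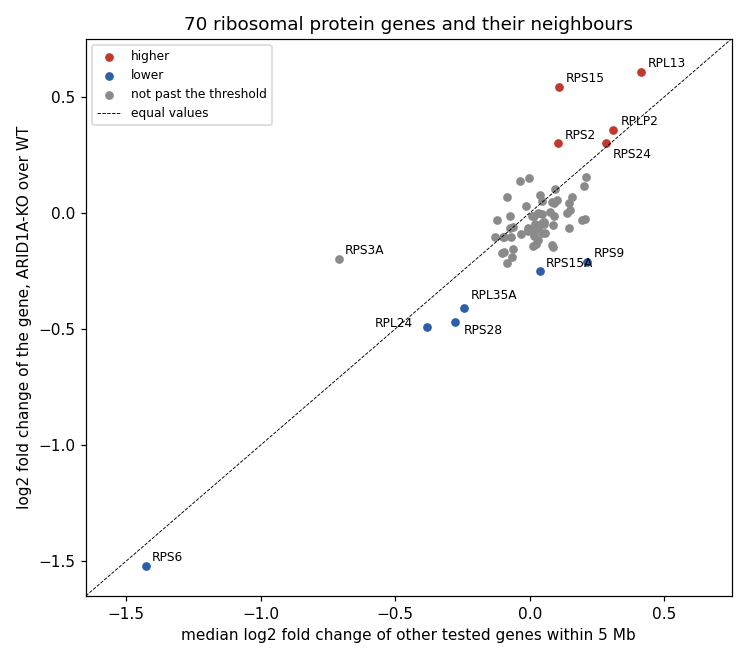
Log2 fold change of 70 of the 72 ribosomal protein genes tested (ARID1A-KO over WT) against the median log2 fold change of other tested genes within 5 Mb, with the line of equal values dashed. RPS6 lies near the line at -1.52 against -1.43, RPS15 lies off it, and RPS3A sits above it with a neighbour median of -0.71.

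**Figure D5:**
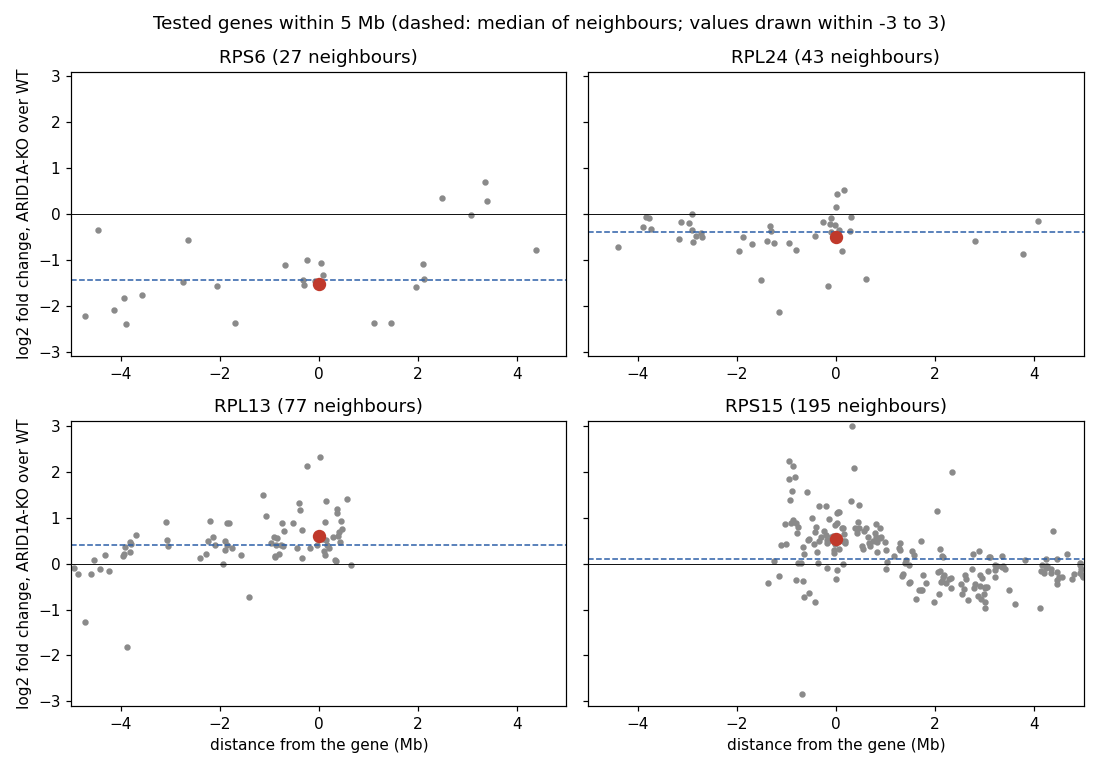
Log2 fold change (ARID1A-KO over WT, drawn within -3 to 3) of tested genes within 5 Mb of RPS6, RPL24, RPL13 and RPS15 against the distance in Mb, with the ribosomal protein gene as the large point and the median of its neighbours dashed. Nearly all genes around RPS6 are below 0, and around RPS15 the genes turn from positive values near it to negative ones further along the chromosome.

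The 73 genes lie on 20 chromosomes. Chromosome 19 holds 12 of them, among them RPS15, which rose, and RPS28 and RPS9, which fell, and chromosome 3 holds 7, of which RPL24 and RPL35A fell. Within 27 of the genes lie 58 rows of small nucleolar RNAs, at most 4 in a gene. Of the 27, 4 were called, where 16.7% of the ribosomal protein genes and 36.2% of all genes tested were.

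The levels of the genes, in TPM, differed far more between genes than between genotypes. RPS12 had the highest level, with 4590 ± 222 TPM in WT and 4727 ± 105 TPM in ARID1A-KO (SD, n = 3). RPL8 followed with 3520 ± 154 and 3895 ± 198 TPM. RPLP1 (2197 ± 72.9 TPM) and RPL13A (2128 ± 11.1 TPM) were among the next in WT, and the difference between these genes was smaller than the SD of RPLP1. Among the lowest were RPS10 at 34.8 ± 1.48 TPM and RPL17 at 41.5 ± 2.57 TPM in WT. Both overlap a readthrough gene on the same strand (RPS10-NUDT3 and RPL17-C18orf32, with 0 to 6 counts in any sample), and how reads in shared exons were assigned was not tested. The median was 759 TPM in WT and 699 TPM in ARID1A-KO, and the order of the 73 genes in both genotypes had a Spearman rho of 0.96. The lengths behind these values are unions of all annotated exons, from 767 to 8153 bases, which lowers the TPM of genes with long rare isoforms.

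Processed pseudogenes, which are copies of spliced mRNA in the genome, can take reads from their parent genes or give reads to them. The tables list 744 rows named as pseudogenes of 70 of the genes. Their counts came to a median of 0.06% of the parent's counts, over 1% for 8 genes and over 10% for 2. The largest shares were 19.2% for RPS2, 12.3% for RPS10 and 5.59% for RPSA. When the counts of these rows were added to the parents, no call changed and the largest move of a log2 fold change was 0.0739. Reads of the parent gene that the counting placed in a pseudogene, or left out as matching both, cannot be told apart here. Reads on the opposite strand came to 0.0996% of the counts of the ribosomal protein genes in sum, against 5.95% over all genes.

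Of 6 cytosolic ribosomal proteins that the naming rule left out, 1 was called, lower. The X-linked RPL10, RPL36A, RPL39 and RPS4X had log2 fold changes of -0.12, 0.07, 0.00 and 0.03, and FAU, which makes RPS30, had 0.10. Among paralogs, RPL22L1, the near-copy of RPL22, fell by 0.67 on the log2 scale (SE 0.06, adjusted p = 4.84e-05), where the neighbours' median was -0.54. RPS27L had -0.22 (SE 0.06, adjusted p = 0.0252) and lost the call in 4 of the fits that left out a sample. RPL7L1, RPL10L, RPL26L1, RPL36AL and RPL39L were not called, with log2 fold changes from -0.18 to 0.16, and RPL3L had 0 to 13 counts in every sample and was not tested.

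Genes that build ribosomes or act on the same mRNAs were counted in lists. Of 71 ribosome biogenesis factors, 10 were higher and 3 lower (18.3% called, against 36.2% of all genes tested), with a median of 0.09. The count of 13 moved to 8 without ARID1A-KO replicate 4 and to 20 without ARID1A-KO replicate 5 or with the replicate block. NOB1, which cuts the 3′ end of 18S rRNA, rose by 0.82 (SE 0.10), and NIP7, an assembly factor, rose by 0.75 (SE 0.08), both on chromosome 16 with neighbours' medians of 0.55. RCL1, a pre-rRNA processing factor, fell by 0.73 (SE 0.12) and NMD3, the export adaptor of the large subunit, fell by 0.37 (SE 0.08) on the log2 scale. Their neighbours had medians of -0.84 and -0.44, and relative to these RCL1 and NMD3 had 0.11 (adjusted p = 0.522) and 0.07 (adjusted p = 0.541). For NMD3 this rests on the wider windows, since the median was 0.09 over 5 genes within 0.5 Mb and -0.18 over 13 genes within 1 Mb. Of 7 chaperones of ribosomal proteins, HEATR3, which helps to bring RPL5 to the nucleus, rose by 0.43 (SE 0.07) and PDCD2, a chaperone of RPS2, fell by 0.46 (SE 0.06) on the log2 scale, where the neighbours' medians were 0.31 and -0.49. Of 16 genes for transcription of rRNA, RRN3, an initiation factor of RNA polymerase I, rose by 0.26 (SE 0.08) and POLR1E, a subunit of that polymerase, fell by 0.20 (SE 0.06) on the log2 scale. Each kept the call in 2 of the 6 fits that left out a sample (adjusted p up to 0.130 for RRN3 and 0.086 for POLR1E).

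Of 16 other mRNAs known to begin with a 5′TOP, 1 was higher and 6 were lower (43.8% called, against 36.2% of all genes tested, with 18.4% of all genes lower), and the median was -0.12. EEF1A1, which brings aminoacyl-tRNA to the ribosome, had 9390, 7961 and 9231 CPM in WT and 5323, 4723 and 5510 CPM in ARID1A-KO. It fell by 0.77 on the log2 scale (SE 0.10, adjusted p = 0.000273). EEF2, the translocase, fell from 4580 ± 292 to 2890 ± 144 CPM (log2 fold change -0.66, SE 0.08, adjusted p = 0.000209). VIM rose by 0.84 (SE 0.10, adjusted p = 0.000171). The neighbours' medians were -0.33 over 34 genes for EEF1A1, -0.01 over 249 genes for EEF2 and -0.05 over 50 genes for VIM. Relative to these EEF1A1, EEF2 and VIM were still called. Within 0.5 Mb the medians were -0.17 over 12 genes, -0.38 over 35 genes and 0.16 over 8 genes. Of 20 regulators of these mRNAs and of mTORC1, 3 were higher and 4 lower (35% called). EIF4EBP2, a translation repressor that mTORC1 inactivates, rose by 0.76 (SE 0.07) and MAF1, a repressor of RNA polymerase III, by 0.37 (SE 0.07), while TIA1 fell by 0.44 (SE 0.06) and CNBP fell by 0.41 (SE 0.06) on the log2 scale, both of them proteins that bind 5′TOP mRNAs. The neighbours of CNBP had a median of -0.42, and those of TIA1 -0.02. Those of EIF4EBP2 and MAF1 had medians of 0.40 and 0.21. Relative to these EIF4EBP2 had 0.37 (adjusted p = 0.00351) and MAF1 0.16 (adjusted p = 0.0913). For EIF4EBP2 this depended on the window, since the median was 0.70 over 12 genes within 0.5 Mb and 0.77 over 17 genes within 1 Mb.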

How the data were processed

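Untreated AID-DIvA cells, 3 WT and 3 ARID1A-KO samples, were measured by paired-end RNA-seq. The methods name a stranded total RNA kit, whereas the labels name polyA RNA. The authors ran STAR (GRCh37) and featureCounts within the Roddy workflow. The deposited counts are whole numbers per gene, not normalized, given by strand and without strand. The methods name gene annotation v29 lift 37, but the identifiers in the tables have older versions. The authors also deposited TPM values. The TPM column with an equal sum over all genes in every sample was used. No columns of other samples were present.

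After filterByExpr and TMM scaling, reverse-stranded counts were compared by edgeR 4.0.16 (R 4.3.3), quasi-likelihood test, with Benjamini-Hochberg adjustment over all genes tested. A gene was called at an adjusted p under 0.05. Standard errors were taken from the log2 fold change and F, and intervals are at 95%. With totals from 54512105 to 84088708 counts, the counting error of the ribosomal protein genes is small against the common biological coefficient of variation of 0.111. No pair of replicates of a group differed by as little as sampling noise (chi-square per gene of at least 7.57). On simulated data of 19331 genes for this comparison, the test recovered 5 of 50 genes changed by 0.3 on the log2 scale, 23 of 50 at 0.5, 45 of 50 at 1 and 50 of 50 at 1.5, with 14 false calls. Only these genes were changed in the simulation, whereas 36.2% of all genes tested were called in the real comparison. The adjusted p threshold was therefore harder to pass in the simulation, and its recovery rates do not carry over to the real comparison.

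Neighbours are other tested genes on the chromosome whose middle lies within 5 Mb. Where their median was taken off, it was a fixed offset for the ARID1A-KO samples. The adjusted p-values of that fit leave out the error of the median, which came from the same samples. Pseudogenes and small nucleolar RNAs were found by row name. The members and the lists were chosen with earlier results of these data known. Genes named are all called ribosomal protein genes, the 3 highest and 3 lowest in WT TPM, those with fixed roles, the 3 with the largest pseudogene share, all paralogs and ribosomal proteins outside the rule, from each other list up to 2 called genes in each direction by size of change, and ARID1A. The results of some of these genes are not reported here. Other genes named were chosen after their values were seen. The lists are cytosolic ribosomal proteins outside the rule, paralogs, Diamond-Blackfan anemia genes, the P stalk, the 5S RNP, chaperones, biogenesis factors, RNA polymerase I, other TOP mRNAs, regulators, library composition, mitochondrial ribosomal proteins and cell type markers.

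The alternatives were unstranded counts or TPM, RLE size factors, DESeq2 1.42.0, a minimum of 10 counts per sample, no filter, a replicate block, offsets from a loess (span 0.3) over exonic length or GC content, the neighbours' median, added pseudogene counts, each sample left out and an adjusted p under 0.01.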

Additional observations from a re-analysis of the deposited data

How the results depend on the processing

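Between 9 and 15 ribosomal protein genes were called under every alternative. Of the 12, DESeq2, RLE normalization, either filter, GC content, pseudogene counts and the replicate block lost none, unstranded counts lost RPS9, the length offset lost RPS15A, and leaving out a sample lost at most 2. With the neighbours' median taken off, the number higher was 3, 7 of the 12 were lost and 5 other genes were newly called. Deviations of samples with the same number correlated at -0.18, 0.27 and 0.18, and those of samples with different numbers at -0.42 to 0.30. With 3 samples per group these values cannot settle whether the numbers pair the samples. With the replicate block 12 ribosomal protein genes were called, the same genes, and 20 biogenesis factors instead of 13. For the changes in this paragraph the cause was not tested. With the neighbours' median taken off, 0 paralogs, 1 Diamond-Blackfan anemia gene, 0 P stalk genes and 1 chaperone were called, and values turned positive for CNBP (0.0072), MRPL18 (0.13), NMD3 (0.071), PDCD2 (0.032) and RCL1 (0.11). At an adjusted p under 0.01 there were 1 paralog, 2 Diamond-Blackfan anemia genes, 7 biogenesis factors, 0 RNA polymerase I genes, 4 other TOP mRNAs, 0 library composition genes and 12 mitochondrial ribosomal proteins. The 5S RNP had 1 call (RPL5) with no filter, the length offset or DESeq2. GC content gave 21 biogenesis factors and 0 library composition genes, the length offset 0 and no filter 2 of the latter. Leaving out a sample gave 1 to 2 paralogs, 1 to 2 P stalk genes, 0 to 1 5S RNP genes, 8 to 20 biogenesis factors (8 when ARID1A-KO replicate 4 was left out and 20 when number 5 of that group was), 0 to 2 RNA polymerase I genes, 4 to 7 other TOP mRNAs (4 without WT replicate 3 or ARID1A-KO replicate 4) and 0 to 2 library composition genes. For 76 named genes, 1154 of 1214 alternatives kept the direction and the call, 46 lost the call, 9 gained it and 5 changed sign. In the simulation over genes of all levels most changes of 0.3 on the log2 scale were missed. Far fewer genes were changed there than were called in the real comparison. The ribosomal protein genes had a lower median SE (0.07, against 0.12 over all genes tested), and the smallest change called among them was RPS9 at -0.21.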

Other observations

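The mitochondrial ribosomal proteins, which are encoded in the nucleus and serve the ribosome of another compartment, were the group most like the cytosolic ones in kind. Of 77 genes 74 were tested, 9 were higher and 10 lower (25.7%, against 36.2% of all genes tested), with a median log2 fold change of 0.04 and a range from -0.91 to 0.86. MRPL23 rose from 25.4 ± 3.03 to 46.1 ± 2.22 CPM and MRPS16 from 115 ± 7.28 to 183 ± 8.66 CPM (SD, n = 3). The neighbours' medians were 0.26 around MRPL23 and 0.39 around MRPS16. Around MRPL23 the median depended on the window, at 0.93 over 12 genes within 0.5 Mb and over 19 genes within 1 Mb. MRPL18 fell from 116 ± 11.3 to 61.7 ± 6.01 CPM, where the neighbours' median was -1.05, and MRPL34 fell from 42.7 ± 2.48 to 28.3 ± 2.95 CPM, where it was -0.36. Within 0.5 Mb of MRPL34 the median was -0.55 over 24 genes.

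Of 5 abundant noncoding RNAs tested as a sign of library composition, MALAT1 was lower, at -0.46 on the log2 scale (SE 0.15, adjusted p = 0.04), and it kept the call in 2 of the 6 fits that left out a sample. Its CPM values overlapped between the genotypes (275 to 359 in WT and 194 to 277 in ARID1A-KO).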
